A study of Mus musculus with 2 samples.

Results

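Classical monocytes, the Ly6C-high monocytes that leave the bone marrow for inflamed tissue, were taken by their transcripts from 2 single-cell libraries of mouse lung, and 1731 of 15453 cells met the rule. The control library gave 1418 of these cells and the fibrosis library 313. A cell was a member when at most 10% of its UMIs (unique molecular identifiers, each counted as 1 captured transcript) lay on mitochondrial genes, when it held at least 2 UMIs of Ly6c2, and when at least 2 of the 4 genes Ccr2, F13a1, Vcan and Ms4a6c were detected. Cells were left out when the 3 C1q genes took 0.3% or more of the UMIs, when 3 or more of the 6 nonclassical genes Adgre4, Cd300e, Treml4, Ace, Eno3 and Spn were detected, or when S100a8 and S100a9 took 2% or more of the UMIs. Any UMI of Cd209a, Cd3e or Cd79a also left a cell out. The members were thus chosen by the measured levels of these genes, whose values are given as a description.

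The mice were male C57Bl/6J, 3 months old, with no gene alteration named, and each library came from 1 lung. Lungs were taken on day 14 after 100 µg of TiO2, a control particle, or of crocidolite asbestos, a fibre that scars the lung, was instilled into the trachea. The labels do not tie either particle to a mouse, so the libraries carry only the names control and fibrosis. Perfused lungs were digested with dispase and DNase I, red cells were lysed, and droplets were loaded with the 10x 3′ V2 chemistry, so the cells include those that a digest frees and blood cells that perfusion leaves. Since each group is a single library from 1 mouse, the spread between mice is unknown, and no test between the groups was made. All intervals are 95% intervals. They cover counting error only, except those of list medians, which cover the spread over the genes of a list.

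Classical monocytes carry the chemokine receptor CCR2, which lets them leave marrow for blood and enter tissue where its ligands are made. In blood they can lose Ly6C and turn into nonclassical monocytes, which patrol vessel walls. In injured lung they can turn into macrophages, and macrophages that arise in this way are known from models of lung fibrosis.

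The 250 bases before and 50 after the transcription start of the 4 defining genes are taken from RefSeq on GRCm38.p6. They are shown because a longer list of classical monocyte identity genes held a letter pattern there more often than genes at large. The searched strings, 3 in all, were read on both strands, each by itself, so that a base could count for several of them: GAGGAA, the core that PU.1 prefers, TTGCNNAA, a C/EBP-type pattern, and GAAANNGAAA, an IRF-type pattern. Of 24 genes of classical monocyte identity, 19 had an entry. GAGGAA stood in a start window of 12 of the 19 genes (63.2%), against 31.3% of 27025 genes. TTGCNNAA stood in 4 of the 19 (21.1%), against 12.2% of all genes. GAAANNGAAA stood in 0 of the 19, against 3.99% of all genes. Each sequence runs 5′ to 3′ on the gene's own strand, and capitals mark GAGGAA. The Ly6c2 window, chr15:75111922-75112221 on the minus strand, and the F13a1 window, chr13:37050195-37050494 on the minus strand, each held 2 matches. Both genes have a second listed start, not shown, whose window held 2 matches for Ly6c2 and 1 for F13a1. The Ccr2 window, chr9:124101933-124102232 on the plus strand, and the Vcan window, chr13:89742463-89742762 on the minus strand, held 0. A match describes the letters and is no measured binding site.
Ly6c2: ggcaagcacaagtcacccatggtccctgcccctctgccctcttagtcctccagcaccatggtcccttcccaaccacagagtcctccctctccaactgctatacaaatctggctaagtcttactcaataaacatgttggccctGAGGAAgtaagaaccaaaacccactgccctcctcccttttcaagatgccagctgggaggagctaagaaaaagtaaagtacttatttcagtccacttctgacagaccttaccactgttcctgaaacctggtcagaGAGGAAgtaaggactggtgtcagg
F13a1: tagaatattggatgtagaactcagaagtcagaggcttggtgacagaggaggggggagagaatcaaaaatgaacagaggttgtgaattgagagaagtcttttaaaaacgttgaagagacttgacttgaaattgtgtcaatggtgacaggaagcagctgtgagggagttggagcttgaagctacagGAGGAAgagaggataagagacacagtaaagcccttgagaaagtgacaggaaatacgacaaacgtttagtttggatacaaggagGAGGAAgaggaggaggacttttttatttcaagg
Ccr2: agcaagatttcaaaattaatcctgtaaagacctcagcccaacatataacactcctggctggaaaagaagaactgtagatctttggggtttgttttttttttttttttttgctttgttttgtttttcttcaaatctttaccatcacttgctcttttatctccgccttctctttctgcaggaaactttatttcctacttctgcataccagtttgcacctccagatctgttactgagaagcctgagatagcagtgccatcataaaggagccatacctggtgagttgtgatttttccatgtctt
Vcan: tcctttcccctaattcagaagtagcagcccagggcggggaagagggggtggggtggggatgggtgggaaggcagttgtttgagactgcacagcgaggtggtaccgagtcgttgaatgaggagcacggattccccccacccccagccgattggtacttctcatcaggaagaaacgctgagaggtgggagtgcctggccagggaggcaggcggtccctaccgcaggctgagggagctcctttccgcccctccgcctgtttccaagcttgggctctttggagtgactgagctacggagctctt

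The libraries held 8280 control and 7173 fibrosis cells with 36632591 and 38090308 UMIs, and the lowest cell totals were 1460 and 1915 UMIs. At most 10% mitochondrial UMIs left 8026 and 6945 cells. Members held 7776074 and 1476364 UMIs, with medians of 5221.5 and 4335 UMIs and 1701.5 and 1518 genes per cell. Their median mitochondrial share was 3.21% and 3.27%. The libraries shared 89 cell barcodes, of which 12 control and 6 fibrosis members carried one. Some members held transcripts of a second cell type: 117 control (8.25%) and 28 fibrosis members (8.95%) did so by fixed signs of lung epithelium, lymphocytes, endothelium, stroma or alveolar macrophages. Of the 73 control and 17 fibrosis members with the highest doublet scores, 66 and 16 were among them. They were kept, and values without them are given where they matter.

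The label was checked against its markers. Ly6c2, a GPI-anchored surface protein of the Ly6 family (15:75108158-75111970 on GRCm38, minus strand), stood at 1642 CPM (the UMIs of a gene, scaled to the same total in every class and library; 1614 to 1671) in control and 1490 CPM (1429 to 1554) in fibrosis members. In nonclassical monocytes it stood at 317 and 121 CPM, in macrophages rich in C1q at 26.3 and 15.4 CPM, and in T cells, some of which make Ly6C, at 450 and 229 CPM. Ccr2 (9:124101950-124113557, plus strand) stood at 880 and 868 CPM in members, at 340 and 201 CPM in nonclassical monocytes and at 68.4 and 69.3 CPM in T cells. F13a1 encodes the A subunit of coagulation factor XIII (13:36867178-37050244, minus strand) and stood at 646 and 686 CPM in members. It was lower in nonclassical monocytes, at 149 and 73.0 CPM, and nearer in macrophages rich in C1q, at 393 and 242 CPM. Vcan, the matrix proteoglycan versican (13:89655312-89742509, minus strand), stood at 252 and 205 CPM in members and at 65.9 and 21.5 CPM in nonclassical monocytes. All 4 defining genes were thus higher in the members than in these classes, which the rule made likely. Ly6c2 shares 47.7% of the 31-base words near its 3′ end with other genes, Ly6c1 among its relatives, so reads could be split between copies. Ly6c1 stood at 23.5 and 20.3 CPM in members and at 3255 and 1190 CPM in endothelial cells.

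**Figure D1:**
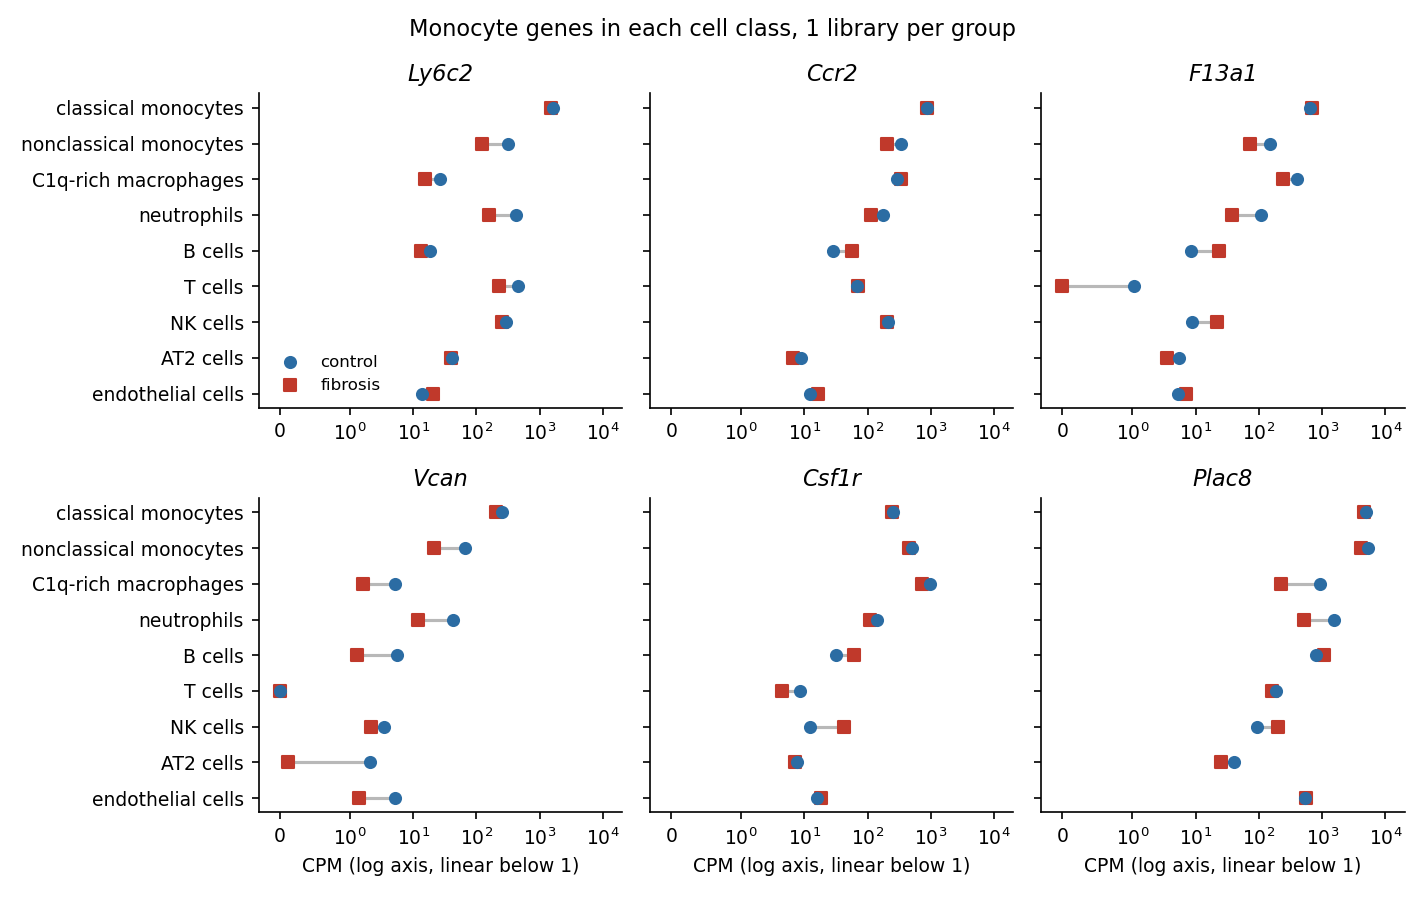
CPM of Ly6c2, Ccr2, F13a1, Vcan, Csf1r and Plac8 in 9 classes of lung cells, 1 point for each library (control and fibrosis), on an axis that is linear near 0 and logarithmic above. Ly6c2 stood at 1642 and 1490 CPM in classical monocytes against 317 and 121 CPM in nonclassical monocytes, and Csf1r stood higher in macrophages rich in C1q (983 and 731 CPM) than in classical monocytes (249 and 243 CPM).

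The threshold on Ly6c2 cut through a gradient. Cells that met all other conditions and had 1 Ly6c2 UMI, just outside the rule, numbered 153 in control and 76 in fibrosis. Their F13a1 stood at 357 and 420 CPM and their H2-Aa, an MHC class II chain, at 842 and 1586 CPM. Cells with 2 UMIs, just inside, numbered 154 and 51, with F13a1 at 418 and 404 CPM and H2-Aa at 437 and 1144 CPM. Members with more than 10 UMIs numbered 444 and 62, with F13a1 at 799 and 898 CPM and H2-Aa at 67.7 and 92.5 CPM. The median member held 7 and 6 Ly6c2 UMIs and the highest 41 and 32. All 4 helper genes were detected in 56.3% of control and 42.8% of fibrosis members.

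Classical monocytes made up a smaller share of the fibrosis library. They were 17.7% (16.8 to 18.5) of 8026 control cells and 4.51% (4.03 to 5.02) of 6945 fibrosis cells, a log2 ratio of -1.97. Among cells with a UMI of Ptprc, the leukocyte gene CD45, the shares were 25.1% (1291 of 5136; 24.0 to 26.3) and 7.0% (277 of 3956; 6.23 to 7.84). Other leukocyte classes differed in both directions. Nonclassical monocytes were 3.66% and 3.11% of cells (294 and 216 cells), and neutrophils 11.1% and 2.23% (891 and 155). Macrophages rich in C1q were 1.94% and 4.81% (156 and 334). Shares sum to a whole, so a share also depends on how many cells of other types the digest released.

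Most genes stood within 2-fold between the libraries. Of 4594 genes with a mean of at least 20 CPM, 4495 (97.8%) were within 2-fold, and 99 (2.15%) were not: 68 (1.48%) were at least 2-fold higher in fibrosis members and 31 (0.675%) at least 2-fold lower. The median log2 ratio of all genes tested was 0.04, and it was 0.04 also for the median over 5 unrelated classes (B, T and NK cells, AT2 cells of the alveolar wall and endothelial cells). Every later value for the unrelated classes is this median unless a range is given. Many of the 2-fold differences were not particular to monocytes: 35 of the 68 higher and 11 of the 31 lower genes were past 2-fold in the same direction in that median. After subtraction of that median, 26 genes (0.566%) were 2-fold higher and 104 (2.26%) lower. Without members that held a second cell type, 85 genes (1.85%) were 2-fold higher and 34 (0.74%) lower, among them 58 of the 68 and 25 of the 31. Of genes with a value, 24 of 67 higher and 14 of 31 lower genes shared at least 20% of their 3′ words with another gene, against 8.44% of the genes tested. After all 3 conditions, 21 higher and 11 lower genes were left, a selection made after the values were seen.

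**Figure D2:**
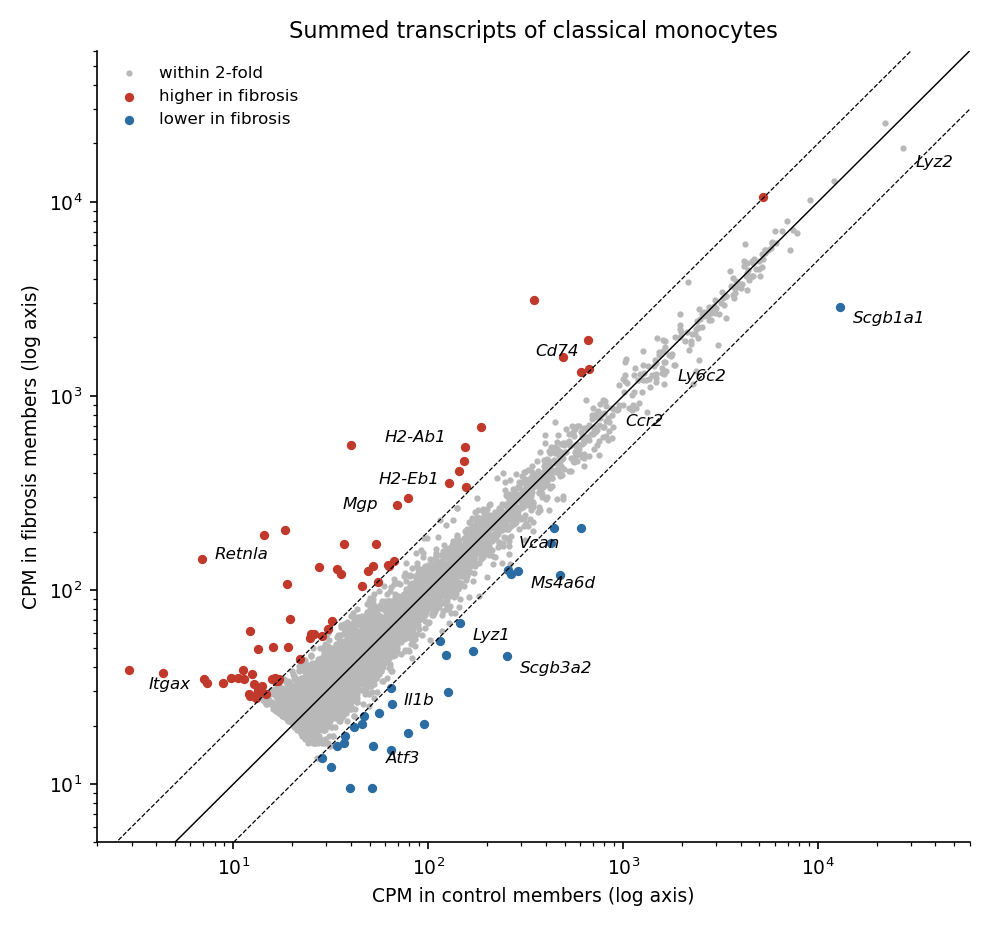
Level of each of 4594 genes in classical monocytes of the control library (x axis, CPM) against the fibrosis library (y axis, CPM), both axes logarithmic, 1 dot per gene, with dashed lines at 2-fold. Most dots lie between the lines (4495 of 4594), with Retnla and Itgax above them and Scgb1a1 and Ms4a6d below. Genes named beside a dot are examples.

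Genes by which classical monocytes are known were mostly within 2-fold between the libraries, as were most genes. Of 24 identity genes tested, 0 were 2-fold higher and 1 was 2-fold lower, beside 1.48% and 0.675% of all genes tested. Their median log2 ratio was -0.15, against 0.04 for all genes tested. Summed over the list, the median per cell was 452 UMIs per 10000 in control and 354 in fibrosis members. Of the fibrosis members, 81.8% lay under the control median of this sum. Such a sum is led by the most abundant genes. Over all members it was 44151.5 and 34908.1 CPM, beside 27410 and 18850 CPM for the lysozyme gene Lyz2. It is thus no measure of the list as a whole. Plac8, a small cysteine-rich protein of myeloid cells, stood at 4976 and 4514 CPM. Fn1, fibronectin, stood at 700 and 870 CPM. Hp, the haemoglobin-binding protein haptoglobin, stood at 1163 and 865 CPM, and Mmp8, a collagenase, at 218 and 184 CPM. None of these 4 differed by 2-fold. Sirpb1c, a receptor of the SIRP family, fell from 257 to 127 CPM (log2 -1.02), and 60.0% of its 3′ words occur in other genes. Per cell, 3 defining genes had near equal medians, at 8.27 and 8.25 Ccr2 UMIs, 5.91 and 6.19 F13a1 UMIs, and 14.5 and 13.9 Ly6c2 UMIs, each per 10000 UMIs. The medians of the other genes that the rule asks for were 1.87 and 0 UMIs for Vcan and 11.9 and 8.90 UMIs for Ms4a6c. The rule holds these genes up in every member, so the medians are a description.

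A few abundant genes differed in most fibrosis members, seen as levels per cell. Lyz2, lysozyme, the most abundant of them (10:117277331-117282321, minus strand), had a median of 279 UMIs per 10000 in control and 185 in fibrosis members, and 83.7% of fibrosis members lay under the control median. Its summed level was 27410 and 18850 CPM, a log2 ratio of -0.54, with -0.31 in nonclassical monocytes, and 36.2% of its 3′ words are shared. S100a4, a calcium-binding protein of motile cells (3:90603771-90606045, plus strand), had medians of 22.6 and 11.3, with 92.7% of fibrosis members under the control median. Its summed level was 2268 and 1151 CPM, a log2 ratio of -0.98, with -0.21 in the unrelated classes and 58.1% of its words shared. Both genes thus stood lower in most fibrosis members rather than in a subset, and neither passed 2-fold.

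Vim, the intermediate filament vimentin, and Tmsb10, the actin-binding thymosin beta 10, were singled out after their values were seen. Vim had medians of 28.6 and 16.1 UMIs per 10000, with 84.0% of fibrosis members under the control median, and summed levels of 3052 (3013 to 3091) and 1831 (1762 to 1901) CPM. Its log2 ratio was -0.74 (-0.80 to -0.68), against -0.83 in nonclassical monocytes, -0.05 in macrophages rich in C1q and 0.22 in the unrelated classes, and none of its 3′ words is shared. The 5 unrelated classes ranged from -0.27 to 0.33, so the ratio in members was below all of them. Tmsb10 rose from 5197 to 10569 CPM (log2 1.02), with per-cell medians of 49.9 and 104 and only 10.9% of fibrosis members under the control median. Its ratio in unrelated classes was 0.65, and 73.6% of its words are shared, so this gene is uncertain.

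**Figure D3:**
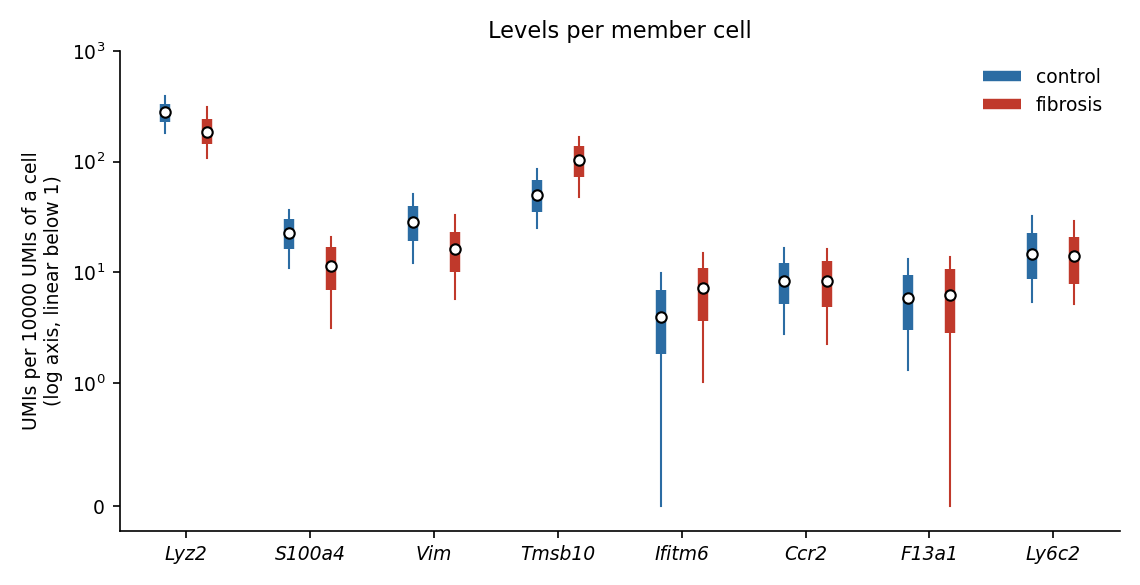
UMIs per 10000 UMIs of each cell for 8 genes in classical monocytes of the control and the fibrosis library, with the median (white mark), the quartiles (thick bar) and the 10th to 90th percentile (thin line). Lyz2, S100a4 and Vim have lower medians in fibrosis (279 to 185, 22.6 to 11.3 and 28.6 to 16.1), and Tmsb10 and Ifitm6 have higher ones. Medians of Ccr2, F13a1 and Ly6c2 are near equal. The thin lines of the 2 libraries overlap for every gene shown.

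Receptors that bring monocytes into tissue or keep them alive differed little, as did most genes. Of 17 chemokine and adhesion receptors tested, 0 were past 2-fold in either direction, beside 2.15% of all genes tested (median log2 0.17, and 0.17 in the unrelated classes). At that background share, a count of 0 in a list of this size, here or in the lists that follow, sets none of them apart from other genes. Counts of higher and lower genes in each list that follows stand beside 1.48% and 0.675% of all genes tested. A count of 1 there rests on that gene alone and is no result about its list. Cx3cr1, the fractalkine receptor, stood at 107 and 121 CPM, and Itgam, the integrin chain CD11b, at 177 and 225 CPM. Ccr1, which binds CCL3 and CCL5, stood at 48.1 and 74.5 CPM. Of 20 receptors for colony-stimulating factors and cytokines, 0 were past 2-fold (median -0.03, and 0.20 in the unrelated classes). Csf1r, the M-CSF receptor on which monocyte survival depends, stood at 249 and 243 CPM. Ifngr1, a chain of the interferon gamma receptor, stood at 459 (444 to 475) and 294 (267 to 323) CPM, log2 -0.64, against -0.13 in the unrelated classes. Il4ra, the chain that IL-4 and IL-13 receptors share, stood at 38.3 and 65.0 CPM, log2 0.77, against -0.18 in the unrelated classes. Those classes ranged from -0.495 to 0.998 for Il4ra, so its ratio in members was within their range. These 2 receptors stood on opposite sides of no difference, and their counting intervals did not overlap between the libraries.

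Cytokine transcripts were sparse in these cells. Only 7 of the inflammatory cytokine genes reached the level needed, 0 were higher and 1, Il1b, was lower (median -0.24, and 0.03 in the unrelated classes). Il1b, the precursor of interleukin 1 beta, fell from 63.9 to 31.2 CPM (log2 -1.02), and in T cells, which make little of it, it stood at 69.4 and 31.1 CPM, a similar pair of levels. Tgfb1, which encodes the matrix-inducing cytokine TGF-beta 1, stood at 344 (331 to 358) and 202 (180 to 226) CPM, log2 -0.77, with -0.75 in the unrelated classes. Ccl6, a chemokine of myeloid cells, stood at 1038 and 1557 CPM, and Ccl9, a relative of it, at 877 and 799 CPM. Ccl2, the ligand of CCR2, and Tnf were below the level tested, at 3.73 and 8.13 CPM and at 14.1 and 21.0 CPM.

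Genes that monocytes gain as they turn into macrophages were mixed. Of 19 tested, 5 were at least 2-fold higher and 0 lower, beside 1.48% and 0.675% of all genes tested, with a median log2 ratio of 0.53 and 0.46 in the unrelated classes. Without members that held a second cell type the median of these 19 genes was 0.20, and that of the list genes that still reached 20 CPM was -0.019. Lpl, lipoprotein lipase (8:68880491-68907448, plus strand), rose from 45.5 (40.9 to 50.5) to 104 (88.5 to 122) CPM, log2 1.20 (0.91 to 1.47), against -0.07 in the unrelated classes. It was higher in fibrosis also in nonclassical monocytes (61.9 and 153 CPM), and stood at 207 and 385 CPM in macrophages rich in C1q. Itgax, the integrin chain CD11c (7:128129547-128150657, plus strand), rose from 7.20 (5.44 to 9.35) to 33.2 (24.6 to 43.9) CPM, log2 2.21 (1.62 to 2.78), against 0.42 in the unrelated classes and 1.81 without second-type members. It rested on 56 and 49 UMIs, and 0.635% and 2.24% of members thinned to 1500 UMIs held one, beside 2.33% and 1.20% of T cells. Over the 5 unrelated classes the ratio ranged from -1.22 to 1.95 for Lpl and from -0.11 to 1.56 for Itgax. The ratio of Itgax in members was above that range, in few cells, and the ratio of Lpl was within it.

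The other 3 raised macrophage genes moved as much in unrelated classes or depended on second-type members. Spp1, osteopontin, rose from 8.74 to 33.2 CPM (log2 1.93), and by 2.35 in the unrelated classes. Cd63, a lysosomal tetraspanin, rose from 24.9 to 58.9 CPM (1.24), and by 1.43 in the unrelated classes. Mrc1, the mannose receptor CD206, rose from 9.64 to 35.2 CPM (1.87), and without second-type members its ratio was 0.57. Not all macrophage genes rose, and 3 were lower in fibrosis by less than 2-fold. Apoe, which carries lipid, stood at 791 and 611 CPM. Trem2, a lipid-sensing receptor, stood at 132 and 96.9 CPM, and Cd68, a lysosomal protein, at 246 and 219 CPM. Mmp12, macrophage elastase, was below the level tested, with 1 UMI in control and 57 UMIs in fibrosis members (0.129 and 38.6 CPM; log2 interval 5.69 to 13.56), and by the median of the unrelated classes it was 4.79 higher on the log2 scale. Alveolar macrophage markers moved with this group: their 12 genes summed to 164 and 364 CPM, with 4 of 5 tested higher. Without second-type members they summed to 66.7 and 107 CPM. Alveolar macrophage genes are among the second-type signs, so these sums are lower in part by that choice. The part of alveolar macrophages in the macrophage genes was not tested beyond that.

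Alternative activation is the state that IL-4 induces in macrophages. Of 7 of its genes tested, 2 were higher and 0 lower, beside 1.48% and 0.675% of all genes tested. The list median was 0.43, and 0.50 in the unrelated classes. The 2 higher genes were Mrc1 and Retnla, a secreted resistin-like protein (16:48842551-48844461, plus strand). Retnla rose from 6.82 (5.11 to 8.92) to 144 (125 to 164) CPM, log2 4.39 (3.96 to 4.86), the largest ratio among the genes tested with a mean of at least 50 CPM. It rose by 5.73 in the median of the unrelated classes, and T cells held 3.16 and 195 CPM. Members thinned to 1500 UMIs with a Retnla UMI were 0.494% and 17.9%, and T cells 0.332% and 21.0%, at median depths of 2772 and 2841 UMIs for T cells. In the fibrosis library the level in members was thus under that of T cells, and over the 5 unrelated classes the log2 ratio ranged from 4.82 to 10.62, above that of members throughout. The part of free RNA in the Retnla counts was not tested. Chil3, a chitinase-like protein of myeloid cells, stood at 1958 and 2641 CPM (log2 0.43), with a ratio of -0.26 without second-type members and 2.29 in the unrelated classes.

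**Figure D4:**
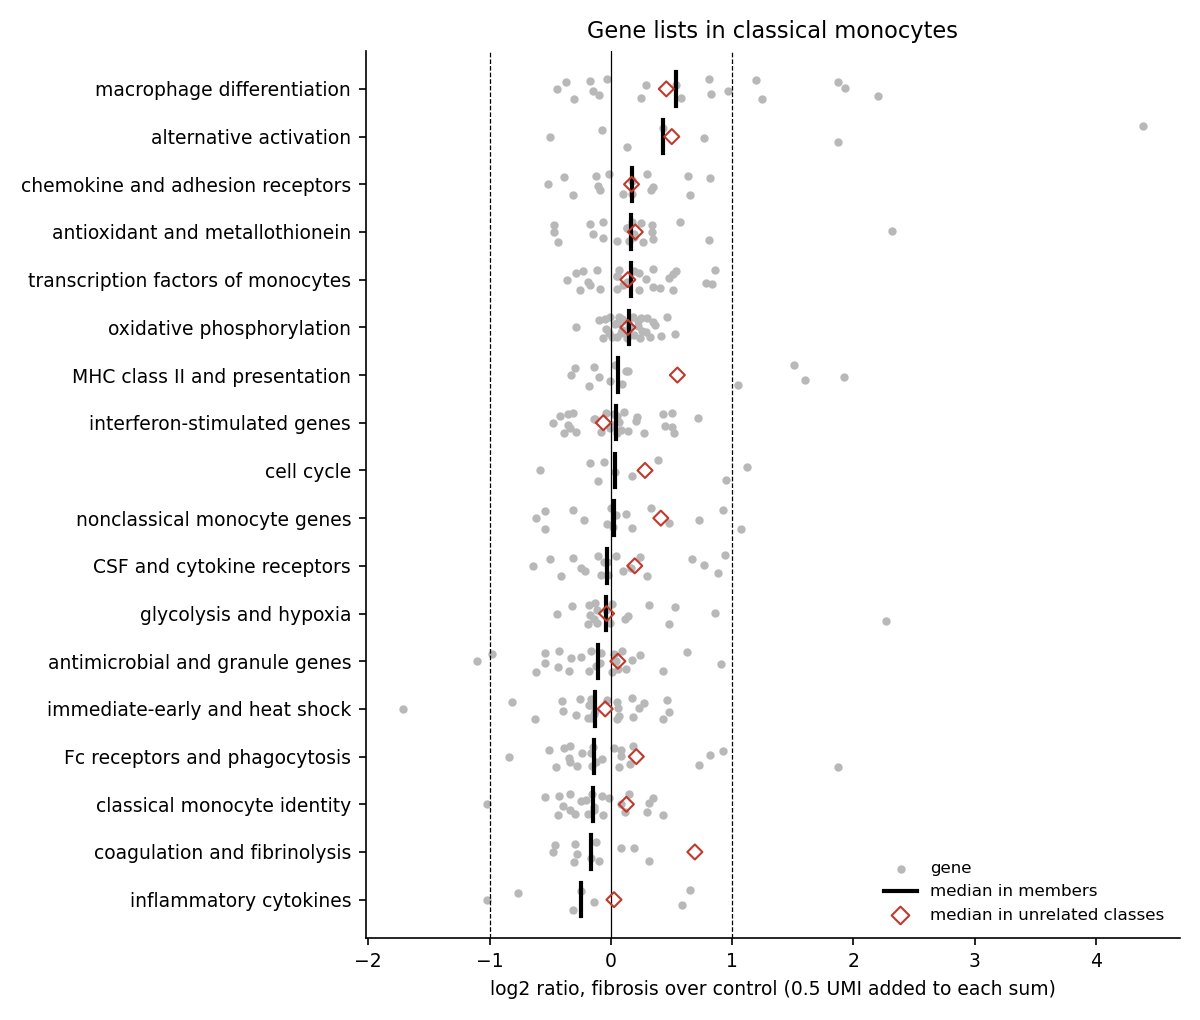
Log2 ratio of CPM (fibrosis over control, x axis) of the genes of each programme list in classical monocytes, 1 dot per gene tested, with the median of the list in classical monocytes (black bar) and in the 5 unrelated classes (red diamond). The medians lie between -0.24 for inflammatory cytokines and 0.53 for macrophage differentiation, and for MHC class II the median in members (0.06) lies left of that in the unrelated classes (0.55).

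Some MHC class II genes, whose products show peptides to T cells, were higher in the fibrosis library. Of 14 genes of this pathway tested, 4 were at least 2-fold higher and 0 lower, beside 1.48% and 0.675% of all genes tested. Their median log2 ratio was 0.06, and 0.55 in the unrelated classes. H2-Aa rose from 143 (135 to 152) to 409 (377 to 443) CPM (log2 1.51), H2-Ab1 from 152 to 463 CPM (1.60) and H2-Eb1 from 78.2 to 296 CPM (1.92). Cd74, the invariant chain that escorts these proteins, rose from 668 to 1379 CPM (1.05). In the unrelated classes the ratios were larger, at 2.69, 1.89, 2.18 and 2.26, so that each gene was lower once they were subtracted. The other members of the pathway stood close: B2m, the light chain of class I, at 2841 and 2834 CPM, and H2-DMb1, a peptide-loading chain, at 122 and 130 CPM.

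Class II transcripts were unevenly spread over cells. Among members thinned to 1500 UMIs, 3.18% (45 of 1417; 2.33 to 4.23) in control and 8.95% (28 of 313; 6.03 to 12.7) in fibrosis held 10 or more UMIs of the 4 class II genes. Without second-type members the shares were 3.23% and 8.07%. In T cells the shares were 0.332% and 1.80%, and in nonclassical monocytes 20.1% and 22.7%. At a minimum of 5 UMIs, 92 and 38 members (6.49% and 12.1%) passed, so the group is a range of a count and not a type. Low counts rose more widely: at least 1 such UMI was held by 35.1% and 51.8% of members and by 27.6% and 43.1% of T cells. Without thinning, the 4 genes together had per-cell medians of 2.04 and 3.93 UMIs per 10000. Of the fibrosis members, 27.5% lay under the control median. The tail of members with 10 or more was larger in fibrosis and larger than in T cells of either library.

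These class II-rich members differed from the others in more than class II. Their F13a1 stood at 352 CPM in control and 170 CPM in fibrosis, against 656 and 743 CPM in the other members. Their Vcan stood at 86.1 and 47.6 CPM against 257 and 223 CPM, and their Ly6c2 at 1057 and 973 CPM against 1661 and 1547 CPM. Their Ccr2 stood at 930 and 708 CPM against 878 and 886 CPM. Members rich in class II thus carried less of 3 defining genes in both libraries, while Ccr2 was a little higher in control and lower in fibrosis. Ciita, the master activator of class II genes, stood at 61.5 CPM (15 UMIs) and 47.6 CPM (7 UMIs) against 2.92 and 2.26 CPM. H2-DMb1 stood at 787 and 578 CPM against 101 and 80.5 CPM, and Apoe at 1811 and 1810 CPM against 757 and 478 CPM. Flt3, a receptor of dendritic cells and their progenitors, had 7 and 3 UMIs there (28.7 and 20.4 CPM, against 11.2 and 9.78 CPM). Zbtb46 had 0 UMIs in these cells of either library (5 and 4 UMIs in the other members), and Ccr7 had 1 and 0 UMIs (18 and 4 UMIs). Such counts are too low to tell whether these 2 dendritic cell genes differed. Itgax stood higher in the class II-rich members of control, at 32.8 against 6.37 CPM (8 and 48 UMIs). In fibrosis its level was near equal in the class II-rich and the other members (5 and 44 UMIs). Second-type signs were present in 3 of 45 and 5 of 28 of these cells. Of the macrophage genes, C1qb stood at 102 and 102 CPM (25 and 15 UMIs) against 12.7 and 15.8 CPM, within the limit that the rule sets on C1q. Fcgr1, an Fc receptor, stood at 197 and 54.4 CPM against 81.4 and 83.5 CPM, so higher in control and lower in fibrosis. Mrc1 went the same 2 ways, on 6 and 2 UMIs. Whether these cells are monocytes with class II, monocytes turning into macrophages or cells of the dendritic line with Ly6c2 was not tested.

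**Figure D5:**
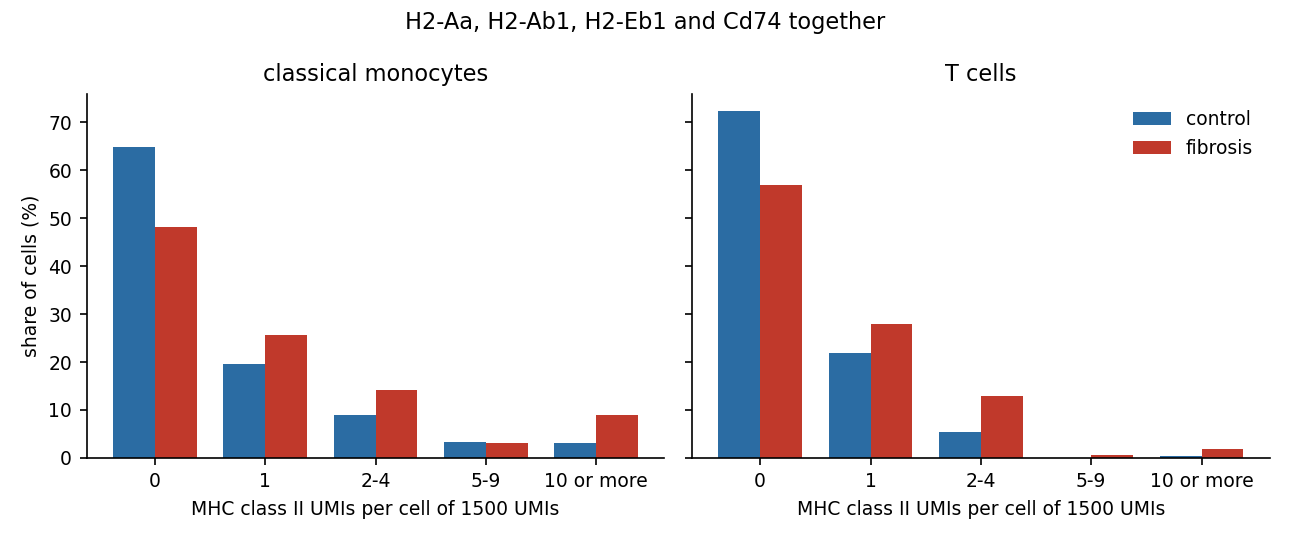
Share of cells (y axis, percent) by the number of UMIs of H2-Aa, H2-Ab1, H2-Eb1 and Cd74 together after thinning to 1500 UMIs (x axis, 5 classes from 0 to 10 or more), for classical monocytes and T cells of each library. The last bar holds 3.18% of control and 8.95% of fibrosis classical monocytes, against 0.332% and 1.80% of T cells.

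Interferon-stimulated genes, which type I interferon switches on, stood close in the 2 libraries. Of 30 tested, 0 were past 2-fold (median 0.04, and -0.06 in the unrelated classes). Ifitm3, a membrane protein that blocks virus entry, stood at 3766 and 3567 CPM, Isg15 at 70.5 and 63.7 CPM and Irf7 at 102 and 83.3 CPM. Ifitm6, a relative of Ifitm3 (7:141015699-141017924, minus strand), stood at 445 (430 to 460) and 733 (690 to 778) CPM, log2 0.72 (0.62 to 0.82), against -0.18 in the unrelated classes (range -0.52 to 1.90). Its median per cell was 3.96 and 7.28 UMIs per 10000, and members with a UMI after thinning were 46.9% and 63.6%, beside 1.33% and 1.20% of T cells. Of fibrosis members, 28.8% lay under the control median of Ifitm6. Ifitm6 was thus higher in most fibrosis members while the list as a whole was not.

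Granule, phagocytic and clotting genes, the tools of a monocyte in tissue, were mostly a little lower. Of 26 antimicrobial genes tested, 0 were 2-fold higher and 1, Lyz1, lower (median -0.11, and 0.06 in the unrelated classes). Lyz1, a second lysozyme, fell from 145 to 67.1 CPM (log2 -1.11), and its ratio was -0.51 without second-type members. Lcn2, the siderophore-binding lipocalin 2 that AT2 cells also make, stood at 140 and 263 CPM (log2 0.91). Cybb, the catalytic chain of the phagocyte oxidase, stood at 717 and 780 CPM. Of 24 Fc receptor and phagocytosis genes, 1 (Mrc1) was higher and 0 lower (median -0.14, and 0.21 in the unrelated classes). Fcer1g, a signal chain of Fc receptors, stood at 2752 and 2454 CPM and Tyrobp, an adaptor for receptors such as TREM2, at 4416 and 3963 CPM. Of 11 genes of coagulation and fibrinolysis, 0 were past 2-fold (median -0.16, and 0.69 in the unrelated classes). F10, coagulation factor X, stood at 242 and 175 CPM.

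Among 28 transcription factors tested, 0 were past 2-fold (median 0.16, and 0.14 in the unrelated classes). Spi1, which encodes PU.1, stood at 749 (730 to 768) and 583 (545 to 623) CPM. Irf8, needed for monocyte and dendritic cell development, stood at 168 and 214 CPM, and Klf4, needed for classical monocytes, at 78.4 and 92.1 CPM. Cebpb, which nonclassical monocytes need, stood at 86.5 (80.1 to 93.3) and 154 (135 to 176) CPM, log2 0.84, with 0.62 in the unrelated classes. Of 26 immediate-early and heat shock genes, which digestion itself can induce, 0 were higher and 1 lower (median -0.13, and -0.05 in the unrelated classes). That gene was Atf3, a stress-induced repressor (1:191170296-191218039, minus strand), which fell from 52.2 (47.3 to 57.5) to 15.6 (9.88 to 23.4) CPM, log2 -1.72 (-2.42 to -1.14), against 0.42 in the unrelated classes and -1.12 in nonclassical monocytes. Fos and Junb, induced early with it in many cells, stood at 481 and 431 CPM and at 461 and 404 CPM. Hspa8, a constitutive chaperone, stood at 2370 and 1350 CPM (log2 -0.81), with 85.3% of fibrosis members under the control median per cell and 49.6% of its words shared.

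Metabolic genes showed few 2-fold differences. Of 34 genes of oxidative phosphorylation, 0 were past 2-fold (median 0.15, and 0.14 in the unrelated classes), and their summed level per cell had medians of 166 and 185 UMIs per 10000. Of 19 genes of glycolysis and the hypoxia response, 1 was higher and 0 lower (median -0.04, and -0.03 in the unrelated classes). That gene was Pgk1, phosphoglycerate kinase, at 27.3 and 131 CPM (log2 2.27), with 2.66 in the unrelated classes. Gapdh stood at 1309 and 1208 CPM, Ldha at 290 and 254 CPM and Hif1a at 52.5 and 94.8 CPM (log2 0.86, with 0.67 in the unrelated classes). Of 22 antioxidant genes, 1 was higher and 0 lower (median 0.16, and 0.20 in the unrelated classes): Mt2, a metallothionein, rose from 6.94 to 34.5 CPM (log2 2.32), and its ratio was 0.93 without second-type members. Ftl1, the ferritin light chain, stood at 6930 and 7919 CPM and Hmox1, heme oxygenase 1, at 66.7 and 73.2 CPM.

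Few members carried transcripts of dividing cells. Of 9 cell cycle genes tested, 1 was higher and 0 lower (median 0.03, and 0.28 in the unrelated classes). Stmn1, a microtubule regulator, rose from 31.9 to 69.1 CPM (log2 1.12), and its ratio was 0.62 without second-type members. Members with at least 2 of 6 proliferation genes after thinning were 0.141% (2 of 1417) and 0.639% (2 of 313), with overlapping intervals of 0.0171 to 0.509 and 0.0775 to 2.29. Without thinning they were 1.55% and 2.88%. A difference in cycling was not detectable at this depth.

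Among genes lower in fibrosis members, Ms4a6d stood out by level. It encodes a membrane protein of the MS4A family (19:11586604-11604849, minus strand) and fell from 287 (275 to 299) to 125 (108 to 145) CPM, log2 -1.19 (-1.42 to -0.98). The unrelated classes gave 0.19 (range -1.05 to 0.60), nonclassical monocytes -1.02 (129 and 63.5 CPM) and macrophages rich in C1q -0.89, so its level was lower in fibrosis in all 3 classes of this lineage. Its median per cell was 2.27 UMIs per 10000 in control and 0 in fibrosis. After thinning, 34.3% and 15.0% of members held a UMI, beside 0.997% and 1.20% of T cells. Ms4a6c, a neighbour in the family that the rule used, stood at 1212 and 919 CPM. Lmna, the nuclear lamina protein, fell from 65.1 to 25.7 CPM (log2 -1.32) and Cd33, a sialic acid receptor, from 36.8 to 16.3 CPM (-1.15), both named after their values were seen.

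Many of the most extreme ratios belonged to genes of other cells or to genes with near-identical copies. Scgb1a1, the secretory protein of club cells, fell from 12972 to 2875 CPM (log2 -2.17), and its ratio was -0.25 without second-type members. Scgb3a2 fell from 255 to 45.4 CPM (-2.48) and stood at 0.28 without them, and Cyp2f2 fell from 125 to 29.8 CPM (-2.06) and stood at 0.00. The 8 club cell markers summed to 13399 and 2997 CPM, and to 3633 and 3086 CPM without these members. Scgb1a1 at 2% of UMIs is itself a second-type sign. Its ratio and this sum without such members thus follow in part from that choice. A single control member held 23587 of the 100867 Scgb1a1 UMIs of that library's members. Mgp, a calcification inhibitor of stroma, rose from 69.1 to 274 CPM (log2 1.99, and 1.29 without second-type members). Its UMIs were found in 2.05% and 5.43% of thinned members, beside 2.66% and 3.89% of T cells. A single member held 406 of the 537 Mgp UMIs of control, and a single member 299 of the 404 of fibrosis. The summed levels of Mgp thus rest largely on 1 cell in each library, and Mgp at 5 UMIs is itself a second-type sign. Ager, the receptor RAGE of AT1 cells, rose from 33.8 to 127 CPM (1.91; 2.82 without second-type members), in 2.61% and 4.79% of thinned members, beside 4.32% and 4.79% of T cells. Sparc, a matrix glycoprotein of stromal cells, rose from 12.1 to 61.6 CPM (2.35; 2.32 without these members) and was named after its values were seen. Whether these transcripts came from free RNA or from attached cells was not tested.

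Some genes with copies moved alike in the members and in the unrelated classes. Nme2, a nucleoside diphosphate kinase, rose from 18.3 to 204 CPM (log2 3.48), with 3.03 in the unrelated classes and 98.9% of its words shared. Rps27rt fell from 611 to 207 CPM (-1.56), with -1.78 in the unrelated classes and 92.7% shared, and Wdr89 fell from 475 to 120 CPM (-1.98), with -1.80 and 34.7%. These genes are uncertain, and how the deposited counting treated such reads in each library was not tested.

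Set beside their nearest relatives, classical monocytes carried more Prtn3, Fn1 and Lgals1. Of 4782 genes tested, 53 (1.11%) were at least 2-fold higher than in nonclassical monocytes in both libraries and 168 (3.51%) at least 2-fold lower, and the classes were split by genes of the same cells, so these folds are a description. Prtn3, proteinase 3, stood at 165 and 168 CPM against 32.5 and 15.6 CPM. Fn1 stood at 700 and 870 CPM against 184 and 135 CPM, and Lgals1, galectin 1, at 1040 and 1158 CPM against 348 and 274 CPM. The rule left out cells with 3 or more of the nonclassical genes it names, Ace among them. Low levels of those genes in members thus follow in part from the rule in both libraries, and Ace, at 21.7 and 21.7 CPM, is a description. Of 16 nonclassical genes tested, 1 (Ear2) was higher and 0 lower between the libraries (median 0.03, and 0.41 in the unrelated classes). Ear2, an eosinophil-type ribonuclease that alveolar macrophages also make, rose from 66.9 to 140 CPM, and 57.7% of its words are shared.

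Against macrophages rich in C1q, 235 of 4993 genes (4.71%) were at least 2-fold higher in both libraries and 449 (8.99%) at least 2-fold lower. Hp stood at 1163 and 865 CPM against 87.6 and 51.0 CPM, and Gsr, glutathione reductase, at 556 and 618 CPM against 57.8 and 45.3 CPM. Itgb7, an integrin chain known for gut homing, stood at 231 and 247 CPM against 21.0 and 25.1 CPM, and Mcemp1, a membrane protein of mast cells and monocytes, at 212 and 179 CPM against 19.3 and 12.2 CPM. Saa3, an acute-phase protein, stood at 110 CPM in the members of both libraries. These genes separated the 2 classes by a wider margin than any of them differed between the control and fibrosis libraries.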

How the data were processed

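The deposited values were counts of UMIs per gene and cell, raw whole numbers, 1 table per library. The submitters' processing notes name bcl2fastq, Cell Ranger 1.3 and mm10, with no role given. Both tables list 27998 genes. Cells were filtered by the membership rule alone, and members and gene lists were chosen with earlier results of these data known. UMIs were summed per class and library, as CPM with exact Poisson intervals. Ratios had exact conditional binomial intervals and a prior of 0.5 UMI for the log2 value, and shares had exact Clopper-Pearson intervals. Genes with a mean of at least 20 CPM were tested for a 2-fold ratio; no significance test was made, since each group is 1 library. The code was tested on simulated counts.

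Comparison classes were gated by marker genes. Shares of cells with a UMI were taken after thinning each cell to 1500 UMIs, which left out 1 control member. Shared sequence is the share of 31-base words in the last 500 bases of the longest GENCODE M21 transcript found in another gene. Signs of a second cell type were Sftpc at 1% or Scgb1a1 at 2% of UMIs, 5 UMIs of Mgp, or 2 genes of a lymphoid, endothelial or alveolar macrophage list. Doublet scores came from the scrublet routine of scanpy 1.11.5, and cells with the highest scores were left out only as an alternative.

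Named genes were the 12 highest and 12 lowest ratios at a mean of at least 50 CPM, the 10 highest and 10 lowest after subtraction of the unrelated classes, the members of 27 gene lists, the 15 genes of highest fold over each of nonclassical monocytes and macrophages rich in C1q, and the 12 of highest Fano factor. Those with nothing to add are not printed, and some named genes are not reported here. Software was Python 3.11.15 with numpy 2.4.6, scipy 1.17.1 and pandas 2.3.3.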

Additional observations from a re-analysis of the deposited data

How the results depend on the processing

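No paired analysis was possible because each group is 1 library; no replicate could be left out for the same reason. The share of classical monocytes, 17.7% in control and 4.51% in fibrosis, was 19.6% and 5.60% with Ly6c2 at 1 UMI or more, 15.7% and 3.77% with 3 or more, 20.3% and 5.89% with at most 5% mitochondrial UMIs (log2 -1.78), 10.4% and 2.66% with cells thinned before the rule, and 25.1% and 7.0% among cells with a Ptprc UMI. It was 21.3% in control with the same lowest UMI total in both libraries (log2 -2.24), and 16.2% in control without second-type members. The share was lower in fibrosis under each of these. The counts of 68 higher and 31 lower genes became 256 and 125 with thinning, 26 and 104 after subtraction of the unrelated classes, 2328 and 907 with no filter on low values, 20 and 11 at a mean of at least 100 CPM, and 44 and 17 without genes of shared sequence. The number of genes tested ranged from 1211 at 100 CPM to 15699 with no filter.

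Thinning put the median of interferon-stimulated genes at 0.25 and of cell cycle genes at -0.20, equal weight per cell put interferon-stimulated genes at 0.17, and no filter put inflammatory cytokines at 0.70. Subtraction of the unrelated classes put macrophage differentiation at -0.23, cytokine receptors at -0.26, MHC class II at -0.27, oxidative phosphorylation at 0.011, coagulation at -0.50, antioxidant genes at -0.17 and transcription factors at -0.057. It also turned Cd74 to -1.21, H2-Aa to -1.18, H2-Ab1 to -0.29, H2-Eb1 to -0.26, Pgk1 to -0.39, Retnla to -1.35, Gm10263 to 0.40, Rps18-ps3 to 0.27 and Rps27rt to 0.23. Thinning turned Cbr2 to 0.024 and Scgb3a2 to 0.37, and leaving out second-type members turned Cyp2f2 to 0.0041 and Scgb3a2 to 0.28; the cause was not tested. Of 234 list medians under all alternatives run, 223 lay within the interval of the reported median, and 27 had the opposite sign. That interval covers the spread over the genes of a list and is wide, at -0.14 to 1.20 for macrophage differentiation. Of 1014 values of 78 named genes, 808 lay within the counting interval of the reported one, and 65 had the opposite sign, 13 of them for genes past 2-fold. Leaving out second-type members, shared barcodes or genes of shared sequence was chosen after seeing the data. The 313 fibrosis members limit all of these values.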

Other observations

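Spread among members was described by the Fano factor, the variance over the mean of UMIs per cell, which is 1 for pure counting noise. Ranked by the lower of the 2 libraries, Sftpc, the surfactant protein of AT2 cells, came out highest, at 106 in control and 104 in fibrosis members. It was 1.12 and 1.5 once second-type members were left out. Sftpc at 1% of UMIs is itself a second-type sign, so this drop follows in part from that choice. Scgb1a1 had 180 in control and 1.71 in fibrosis members. Cd74 stayed spread without second-type members, at 13.4 and 16.2 (12.3 and 14.6 with them). H2-Aa did so too, at 6.67 and 6.70 (6.39 and 6.59 with them). Ccl5, a chemokine that T and NK cells make in quantity, had 26.1 and 7.39.

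Markers of other cells in the members were as follows. The 16 neutrophil markers summed to 1278 and 1069 CPM. The 13 AT2 markers summed to 6330 and 9009 CPM, and to 1903 and 2502 CPM without second-type members. T and NK markers summed to 133 and 120 CPM (18.9 and 40.9 without), B cell markers to 22.6 and 27.8 CPM, dendritic cell markers to 173 and 272 CPM, endothelial markers to 177 and 123 CPM (56.5 and 75.3 without), and red cell and platelet markers to 17.7 and 14.9 CPM. The signs of a second type use some of these markers, so the sums without such members are lower in part by that choice. Cd3e, Cd79a and Cd209a were at 0 by the rule. Sftpc itself stood at 4214 and 6054 CPM in members and at 1377 and 1417 CPM in T cells.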
